A study of Saccharomyces cerevisiae with 4 samples.

Results

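Of 56 listed genes for the synthesis of arginine, histidine, leucine, isoleucine with valine, lysine, methionine, serine, threonine, purines and pyrimidines, 53 had deletion strains with spots on tag arrays of budding yeast (Saccharomyces cerevisiae), among 5325 strains with a gene name in all. Strains were taken by the gene symbol of the platform annotation and grouped by its prefix into 10 pathways: ARG, HIS, LEU, URA, ILV, LYS, MET, SER, THR with HOM, and ADE. All 53 had a value on each of the 4 arrays, as did 5288 strains of the whole pool. The strains of ARG5,6, ARG8 and ADE5,7 had no spots under those names and are not analysed here.

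The arrays belong to a screen for synthetic lethality with CDC102, now named PSF2 (YJL072C on chromosome X), whose product is part of GINS, a complex of the replication machinery. Per the labels, the starting pool held 5896 haploid-convertible heterozygous deletion diploids, the chromosomal CDC102 gene was disrupted with natMX in every group, and a centromeric URA3 plasmid then supplied either the mutant allele cdc102-1 or wild-type CDC102. Spores were plated and left for 2 days, at either 28 or 30 degree, on MM-Ura (single and double mutants, Cy5) and on the same medium with Nat (nourseothricin, to which natMX gives resistance; double mutants, Cy3). Each combination of plasmid and temperature was 1 array, so there were 2 arrays for each plasmid and no replicate within a combination. Arrays were assigned by title. The descriptions of both wild-type samples name the wild-type plasmid but later call the pool cdc102-1.

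A yeast cell that lacks a biosynthetic enzyme is an auxotroph: it divides only where the medium supplies the missing amino acid or base, or where a paralog does the same step. Haploids of such convertible pools are selected through a HIS3 reporter that only one mating type expresses and with canavanine, a toxic arginine analog, so in published protocols the medium lacks histidine, arginine and leucine; here uracil was left out to keep the plasmid. That places the ARG, HIS, LEU and URA genes in a class whose nutrients are left out and the other 6 pathways in a class whose nutrients such media usually supply. The labels write MM without giving its composition, so this division is background and not a label.

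Every value below is a log2 ratio of the 2 dyes, averaged over a strain's spots (both tags) and set against the median strain of its array, so 0 is the median strain. The labels do not state the numerator. Cy5 over Cy3 is likely, since the Cy5 material is listed as the first source; on that reading a lower ratio means that a tag was relatively more abundant in the Nat material. Spot intensities were not used, so a strain scarce on both kinds of plate cannot be told apart by its ratio from one that was abundant on both. The SD over all strains was 0.73 and 1.03 on the cdc102-1 arrays at 28 and 30 degree and 0.65 and 0.77 on the CDC102 arrays, and 725 named spots had no value on the cdc102-1 array at 30 degree against 16 to 396 on the others.

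The first question was whether the strains of a pathway stood away from the median strain over the 4 arrays. Of the 53 strains, 13 had a mean ratio below that of the median strain and 2 above it in limma's test (plasmid and temperature as additive terms, Benjamini-Hochberg adjusted p under 0.05 over 5288 strains). The 13 are 24.5% of the strains measured, and of all strains 15.7% were lower and 4.48% higher by the same test. Between pathways the count was uneven. In the ARG, HIS, LEU and URA pathways 8 of 18 strains were lower (44.4%), 0 were higher, and the median of the mean ratios was -0.86. Within this class, URA held 1 lower strain of 5 (20.0%) and had a median of -0.38. At an unadjusted p under 0.05, 15 of these 18 were lower, beside 26.1% of all strains. In the other 6 pathways 5 of 35 strains were lower (14.3%), 2 were higher, and the median was 0.06. Without the 4 ILV strains, the lower strains of that class were ADE3 and ADE13 alone.

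**Figure D1:**
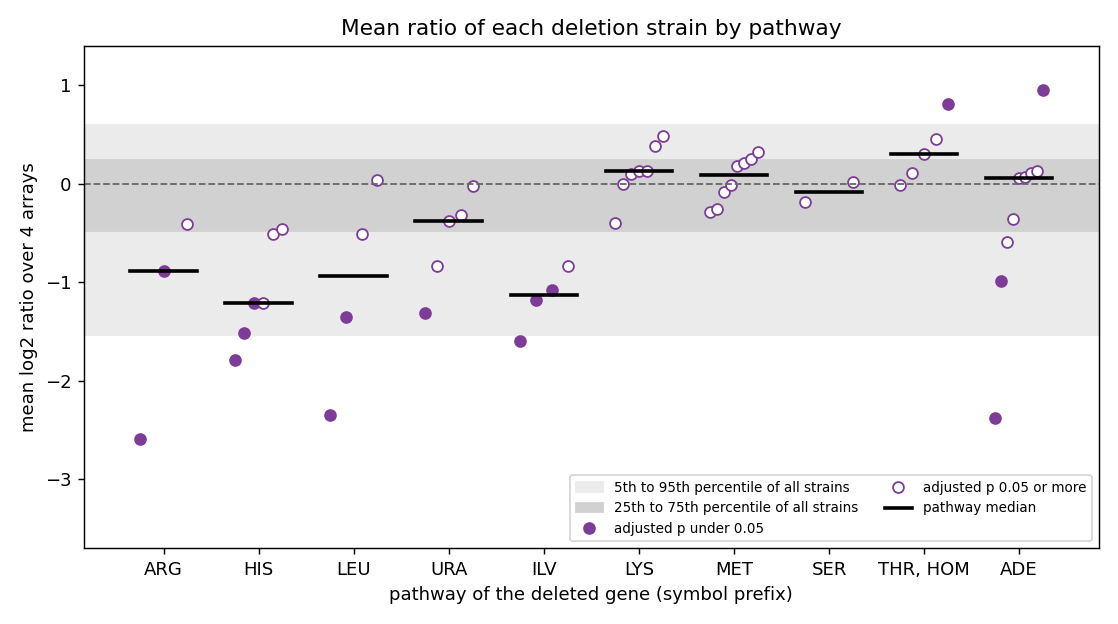
Mean log2 ratio over 4 arrays (vertical axis, 0 is the median strain) of each deletion strain, by pathway; filled points passed limma's test at an adjusted p under 0.05, black bars are pathway medians, and grey bands span percentiles of all strains. The ARG, HIS, LEU and ILV medians lie between -1.21 and -0.88, and the URA median at -0.38. The LYS, MET, SER, THR with HOM, and ADE medians lie between -0.08 and 0.30.

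The position on single arrays is taken from the same values as the mean ratio, so the counts here are a description only. Below the median on all 4 arrays were 12 of the 18 ARG, HIS, LEU and URA strains (66.7%), against 27.6% of all strains. Over all 53 strains, 22 (41.5%) were below on every array and 7 (13.2%) above on every array, where 26.7% of all strains were. All 13 strains past the test on the lower side were below the median on all 4 arrays. Lower by 0.5 or more were 12 of these 18 strains and 7 of the other 35, beside 24.5% of all strains.

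Many of these calls lay close to the threshold. The count of 8 lower strains in the ARG, HIS, LEU and URA pathways became 3 without the cdc102-1 array at 28 degree, 5 without the CDC102 array at 28 degree, 6 without the CDC102 array at 30 degree and 8 without the cdc102-1 array at 30 degree. HOM6, ADE12 and ADE13 lost the call whichever array was left out (limma adjusted p between 0.067 and 0.348), while ARG7, HIS4, HIS6, ILV3, ILV6 and ADE3 were called in every such fit. LEU3, URA2, LEU1, HIS2 and ILV2 lost it without the cdc102-1 array at 28 degree (limma adjusted p 0.067, 0.057, 0.097, 0.096 and 0.113) and without 1 or 2 of the CDC102 arrays in turn. ARG1 lost it without any array other than CDC102 at 28 degree (limma adjusted p between 0.071 and 0.098). Without centring of the arrays, which shifts all strains down, 13 of the 18 and 8 of the other 35 strains were lower. Of all 5288 strains, 1266 then passed in either direction, against 1067 with centring.

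**Figure D2:**
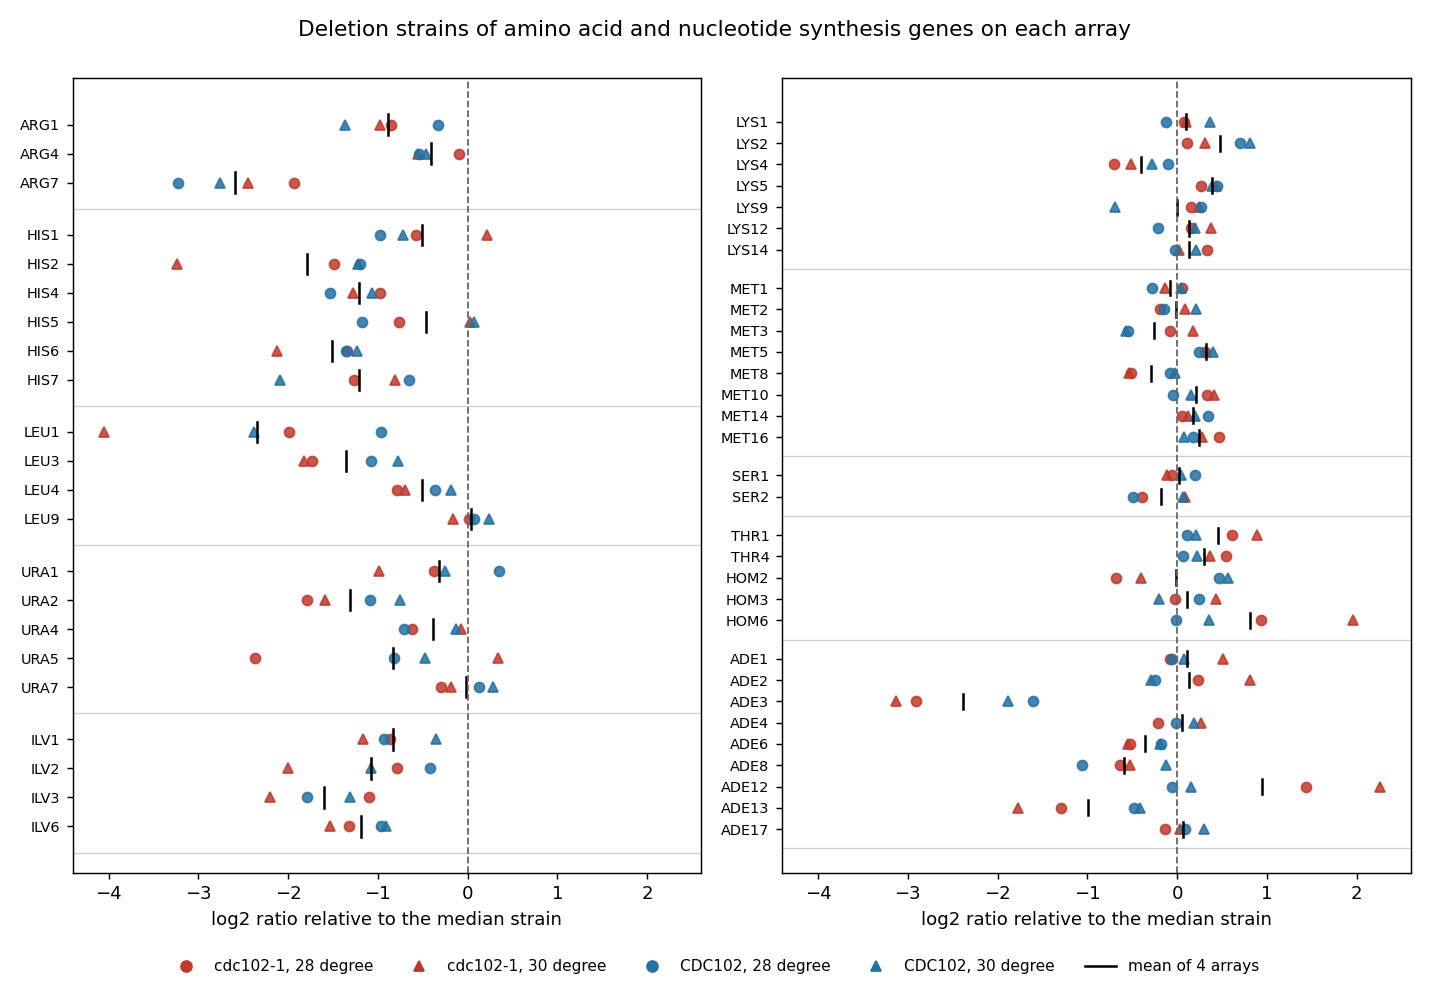
Log2 ratio of each of the 53 deletion strains relative to the median strain (horizontal axis) on each array; red marks cdc102-1, blue marks CDC102, circles 28 degree, triangles 30 degree, and the black line is the mean of the 4 arrays. ARG7 and ADE3 lie at -1.60 or lower on every array, the LYS, MET and SER strains lie near 0, and ADE12 and HOM6 lie to the right on the cdc102-1 arrays.

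Among the arginine genes, the lowest strain lacked ARG7, the mitochondrial ornithine acetyltransferase that recycles the acetyl group of the pathway. Its ratios were -1.93 and -2.45 with cdc102-1 at 28 and 30 degree and -3.22 and -2.76 with CDC102. The mean was -2.59 ± 0.17 (SE of the fit over 4 arrays; limma adjusted p = 0.0209), the 29th lowest of the 5288 strains, and all arrays were low, the CDC102 pair more so. ARG1, the argininosuccinate synthetase, stood at -0.86, -0.98, -0.33 and -1.36 in the same order (mean -0.88 ± 0.16, limma adjusted p = 0.0475). ARG4, the lyase that follows it and releases arginine, stood at -0.10, -0.55, -0.54 and -0.46, with a mean of -0.41 ± 0.12 that did not pass (limma adjusted p = 0.104).

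All 6 histidine strains had a mean ratio below 0, and 3 passed the test. HIS2, the histidinol phosphatase, stood at -1.49 and -3.24 with cdc102-1 at 28 and 30 degree and at -1.20 and -1.22 with CDC102 (mean -1.79 ± 0.26, limma adjusted p = 0.0355), so the cdc102-1 array at 30 degree lay far below the other 3. HIS6, the isomerase of the middle of the pathway, stood at -1.34, -2.13, -1.35 and -1.23 (mean -1.51 ± 0.16, limma adjusted p = 0.0258). HIS4, a protein with several activities that include the last step, stood at -0.98, -1.27, -1.54 and -1.07 (mean -1.21 ± 0.14, limma adjusted p = 0.0283). Averaged over both tags, HIS6 and HIS4 were low on every array. For HIS4 with CDC102 at 30 degree, the first tag read -2.36 and the second 0.22. The HIS4 call was lost with the second tag only (limma adjusted p = 0.154) and with the median over spots (limma adjusted p = 0.061).

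HIS7, the imidazole glycerol phosphate synthase, had the same mean as HIS4 to 2 decimals, -1.21, but a larger error of 0.28 and did not pass (limma adjusted p = 0.0689). Its ratios were -1.27, -0.81, -0.66 and -2.09. HIS1, which catalyses the first step, had a mean of -0.51 with 1 array above 0, and HIS5, the aminotransferase, a mean of -0.46 with both 30 degree arrays at about 0 (0.03 and 0.08) and both 28 degree arrays below it (-0.77 and -1.18). The HIS3 strain, a further histidine gene, had a mean of 0.29 (the parental strains of the deletion collection already lack HIS3).

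Of the leucine genes, LEU1 and LEU3 passed the test. LEU1, the isopropylmalate isomerase of the second step, stood at -1.99 and -4.05 with cdc102-1 at 28 and 30 degree and at -0.96 and -2.38 with CDC102 (mean -2.35 ± 0.13, limma adjusted p = 0.0209); the value of -4.05 rests on the second tag only. Within each plasmid the 30 degree array was the lower. LEU3 is not an enzyme but the transcription factor of the pathway, and its strain stood at -1.74, -1.83, -1.08 and -0.78 (mean -1.36 ± 0.11, limma adjusted p = 0.0225).

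The first step of leucine synthesis is carried out by a pair of paralogous isopropylmalate synthases. LEU4, the major one, stood at -0.79, -0.70, -0.37 and -0.19 (mean -0.51 ± 0.10), just outside the test (limma adjusted p = 0.0536). LEU9, the minor one, stood at 0.01, -0.16, 0.07 and 0.23 (mean 0.04). LEU4 was the lower on each of the 4 arrays, by 0.42 to 0.80.

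The other pairs held values near 0, apart from URA5. In the purine pathway ADE17 had a mean of 0.07 and ADE16 of 0.24, where either enzyme carries out the last steps to IMP. The CTP synthases URA7 and URA8 had means of -0.02 and 0.19. The major orotate phosphoribosyltransferase URA5 had a mean of -0.83 and the minor one, URA10, of 0.14. LYS20 and LYS21 stood at -0.01 and 0.31, SER3 and SER33 at 0.38 and 0.18, and ASN1 and ASN2 at 0.29 and 0.18.

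In the pyrimidine pathway 1 of 5 strains passed, on the lower side (20.0%, beside 15.7% of all strains). The median of the 5 mean ratios was -0.38. URA2 is the large enzyme that makes carbamoyl phosphate and carbamoyl aspartate. Its strain stood at -1.79 and -1.59 with cdc102-1 and at -1.09 and -0.75 with CDC102 (mean -1.31 ± 0.10, limma adjusted p = 0.0221). Averaged over both tags, it was low on all arrays and lower with cdc102-1. On the CDC102 array at 30 degree, however, the first tag of URA2 read -2.44 and the second 0.94. URA5 varied most, at -2.37, 0.33, -0.82 and -0.48 (mean -0.83 ± 0.34, limma adjusted p = 0.166); its second tag read -4.87 on the cdc102-1 array at 28 degree. URA4, the dihydroorotase, and URA1, the dihydroorotate dehydrogenase, had means of -0.38 and -0.32 and did not pass. URA4 lacked its first tag on the cdc102-1 array at 30 degree, and its complete second tag had a mean of 0.04. All strains carry a URA3 plasmid, which supplies the last enzyme on the way to UMP but none of these.

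The isoleucine and valine genes, whose nutrients are not among the 4 named above, lay as low as the histidine genes: 3 of 4 passed and the median was -1.13. ILV3, the dihydroxyacid dehydratase, stood at -1.09, -2.20, -1.79 and -1.31 (mean -1.60 ± 0.24, limma adjusted p = 0.0367). ILV6, the regulatory subunit of acetolactate synthase, stood at -1.32, -1.54, -0.97 and -0.91 (mean -1.18 ± 0.11, limma adjusted p = 0.0226). The catalytic subunit of the same enzyme, ILV2, stood at -0.79, -2.01, -0.42 and -1.07 (mean -1.07 ± 0.13, limma adjusted p = 0.0282). Both subunits were below the median on all arrays. The acetolactate synthase and the dehydratase serve valine, isoleucine and leucine synthesis alike. ILV1, the threonine deaminase, serves isoleucine alone; its mean of -0.83 ± 0.16 missed the threshold (limma adjusted p = 0.0510).

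In the lysine, methionine, serine and threonine pathways 0 of 22 strains were lower by the test, and 1, HOM6, was higher. The 7 lysine strains ran from -0.40 for LYS4, the homoaconitase, to 0.48 for LYS2, the aminoadipate reductase (limma adjusted p = 0.0583). The 8 methionine strains, all of sulfate assimilation apart from MET2 of the homoserine branch, ran from -0.29 for MET8, needed for siroheme, to 0.32 for MET5, a sulfite reductase subunit. SER1 and SER2, the last steps to serine, had means of 0.02 and -0.18. All 17 strains of these 3 pathways lay within 0.5 of the median strain.

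The threonine genes were the highest pathway, with a median of 0.30. HOM6, the homoserine dehydrogenase, stood at 0.94 and 1.96 with cdc102-1 and at -0.02 and 0.35 with CDC102 (mean 0.81 ± 0.13, limma adjusted p = 0.0418), over 12 spots. Only the cdc102-1 arrays were clearly above 0. With no plasmid or temperature term, the call was lost (limma adjusted p = 0.131). THR1, the homoserine kinase that acts next, stood at 0.61, 0.89, 0.11 and 0.21, in the same order of plasmids, and did not pass (mean 0.45, limma adjusted p = 0.0664). THR4, the threonine synthase, had a mean of 0.30, and HOM3, the aspartate kinase that opens the pathway, of 0.11.

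Of 9 purine strains, 3 passed the test, on both sides of the median strain. Lower were 2 (22.2%, beside 15.7% of all strains), and 1 was higher, as were 4.48% of all strains. ADE3 makes the one-carbon folates used in purine synthesis, and its mutants are known to need histidine as well as adenine. Its strain stood at -2.91 and -3.13 with cdc102-1 and at -1.60 and -1.88 with CDC102 (mean -2.38 ± 0.10, limma adjusted p = 0.0209), the 55th lowest of all strains and far from the rest of its pathway. ADE13, the adenylosuccinate lyase, which acts once on the way to IMP and again on the way to AMP, stood at -1.29, -1.77, -0.48 and -0.41 (mean -0.99 ± 0.13, limma adjusted p = 0.0300). ADE12, the adenylosuccinate synthetase of the branch from IMP to AMP, stood at 1.43 and 2.26 with cdc102-1 and at -0.05 and 0.15 with CDC102 (mean 0.95 ± 0.13, limma adjusted p = 0.0333), so the mean above 0 came from the cdc102-1 pair, and the call was lost with no plasmid or temperature term (limma adjusted p = 0.150). ADE12 and ADE13 act in succession on the AMP branch and had ratios on opposite sides of the median strain with cdc102-1. ADE4, ADE1, ADE2, ADE17 and ADE6 had means of 0.06, 0.11, 0.13, 0.07 and -0.36, and ADE8 one of -0.59, none past the test.

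The comparison of plasmids asks which deletions are recovered differently when CDC102 is supplied as the mutant allele. Across all 5288 strains 0 (0.0%) passed limma's adjusted test, where no adjusted p was below 0.553. With an unadjusted p under 0.05, 2 of the 53 strains had a higher ratio with cdc102-1 and 7 a lower one, where 5.35% and 3.39% of all strains did. The values below are therefore measured differences, none past the adjusted test. Pathway medians of the difference were lowest for LEU (-0.66), URA (-0.44) and ILV (-0.43) and highest for THR with HOM (0.32); they were 0.18 for both ARG and HIS, and -0.07 over all 53 strains beside 0.01 over all strains.

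ADE12 and HOM6 were the 2 strains with a higher ratio. The difference of ADE12 (cdc102-1 minus CDC102) was 1.80 ± 0.26 (SE of the additive fit; limma unadjusted p = 0.005, adjusted p = 0.553), with 1.48 at 28 degree and 2.11 at 30 degree. For HOM6 it was 1.28 ± 0.27 (limma unadjusted p = 0.014), with 0.96 and 1.61. In both strains the CDC102 arrays lay near 0 and the plasmids did not overlap.

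In the other direction ADE3 differed by -1.28 ± 0.20, with -1.31 and -1.24. The LEU1 difference was -1.35 ± 0.27 (-1.03 at 28 degree, -1.67 at 30 degree), but it sets 1 tag on the cdc102-1 array at 30 degree against both tags elsewhere. In the second tag, which had a value on all 4 arrays, LEU1 differed by -0.67 (-0.41 and -0.93). Its plasmids overlapped, because the CDC102 array at 30 degree lay below the cdc102-1 array at 28 degree. ADE13 differed by -1.08 ± 0.25 and HOM2, the aspartate semialdehyde dehydrogenase, by -1.06 ± 0.21. LEU3, URA2 and URA1 differed by -0.85 ± 0.23, -0.77 ± 0.20 and -0.73 ± 0.20. ADE3, ADE13, LEU1, LEU3 and URA2 were thus low with both plasmids and lower with cdc102-1. HOM2 instead lay at -0.69 and -0.41 with cdc102-1 and at 0.47 and 0.56 with CDC102, on either side of the median strain. The homoserine pathway therefore held HOM6 and HOM2, enzymes of consecutive steps, with differences of opposite sign.

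**Figure D3:**
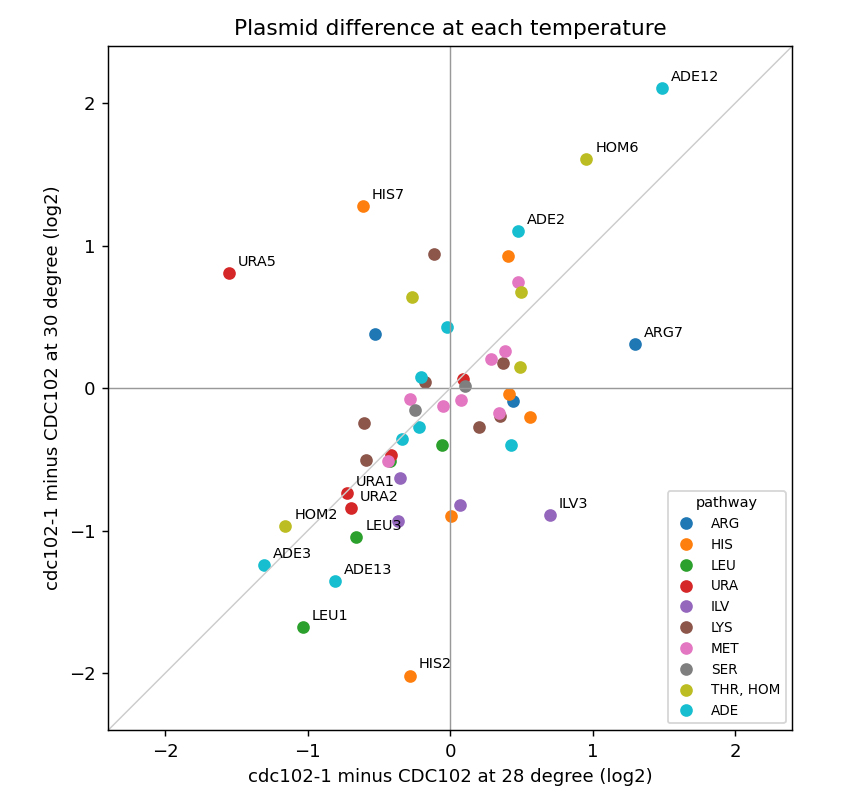
Difference in log2 ratio between plasmids (cdc102-1 minus CDC102) at 28 degree (horizontal axis) and 30 degree (vertical axis) for the 53 strains, coloured by pathway; the diagonal marks equal differences. ADE12 lies at 1.48 and 2.11, LEU1 at -1.03 and -1.67, and URA5, HIS7 and ILV3 lie off the diagonal with opposite signs.

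By size alone, without a test, at 28 degree 2 strains had ratios higher with cdc102-1 by 1 log2 unit or more and 4 lower ones, where 3.93% and 2.84% of all strains were. At 30 degree 4 were higher and 5 lower, beside 7.77% and 7.92% of all strains. At both temperatures ADE12 was higher, and LEU1 and ADE3 were lower; in its complete second tag LEU1 was under this size at both. ADE2, one of the 4 higher at 30 degree (1.10), also lacked its first tag on 1 array, and in its complete second tag differed by 0.068. The plasmids did not overlap in 10 strains with a higher ratio (18.9%) and 18 with a lower one (34.0%), against 22.2% and 19.8% of all strains. HIS2 differed by -0.28 at 28 degree and -2.02 at 30 degree, and ARG7 by 1.29 and 0.31, so each rested mainly on 1 temperature. At both temperatures the compared arrays are single, and the cdc102-1 array at 30 degree had both the widest spread and the most spots without a value; the part of these in the differences was not tested.

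The temperatures were compared in the same fit. Of all strains 0 (0.0%) passed at an adjusted p under 0.05, with none below 0.730. With an unadjusted p under 0.05, 1 of the 53 strains was higher at 30 degree and 3 lower, beside 1.63% and 3.95% of all strains. HIS5 was the higher one, by 1.03 ± 0.24 (0.80 with cdc102-1 and 1.25 with CDC102). LEU1 was lower by -1.74 ± 0.27 (-2.06 and -1.42), ILV2 by -0.93 ± 0.25 and URA1 by -0.61 ± 0.20. The largest value after LEU1, 1.52 ± 0.68 for URA5, came mostly from cdc102-1 (2.70, against 0.34 with CDC102). It also came from 1 tag: the URA5 temperature difference was -0.59 in the first tag and 3.62 in the second. Among the 10 pathway medians the temperature difference ran from -0.20 for ILV to 0.27 for URA and ADE.

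Each strain carries a pair of tags, which were read from separate spots and give a check within the same DNA. Both tags had values on all 4 arrays for 47 of the 53 strains, and 34 of these (72.3%) had both tag means on the same side of the median strain, as did 70.5% of all strains with both tags. The tags' means differed by over 1 in 11 of 47 strains (23.4%), and in 12.6% of all strains with both tags. These were 3 of 4 ILV strains, 5 of 16 ARG, HIS, LEU and URA strains (31.3%) and 3 of 7 ADE strains. In LYS, MET, SER and THR with HOM there were 0. LEU, a pathway with low strains, also held 0 among its 3 strains with both tags. Of the 13 strains past the test on the lower side, 12 had both tags on all arrays, and in 5 of these the tags differed by over 1. Both tag means were below 0 in all 12, and in 90.5% of the lower strains of the whole pool; the mean of both tags chose these strains, so this is a description only.

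**Figure D4:**
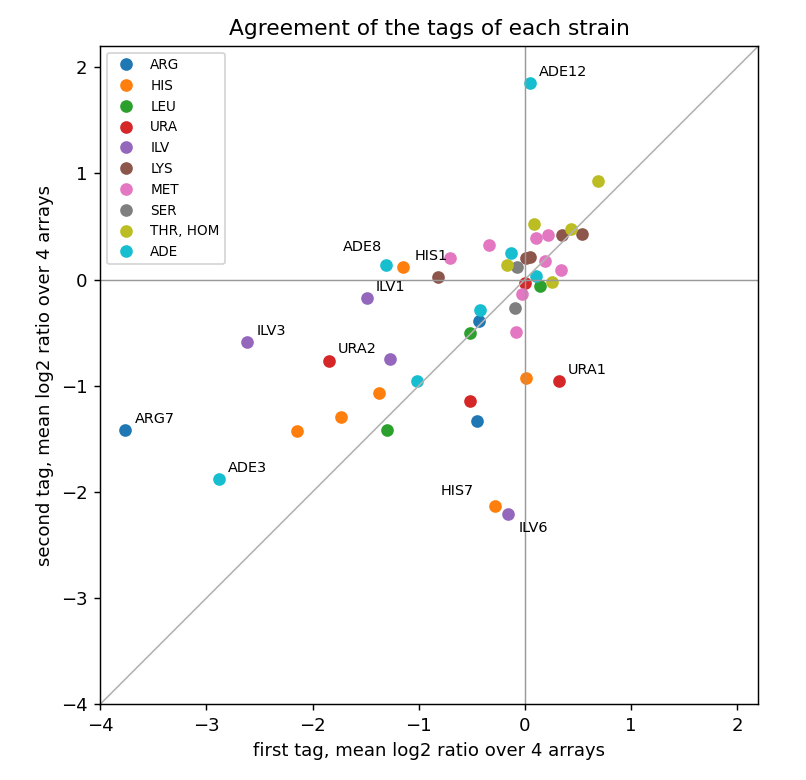
Mean log2 ratio over 4 arrays of the first tag (horizontal axis) and the second tag (vertical axis) for the 47 strains with both tags on all arrays, coloured by pathway; the diagonal marks equal tags and strains over 1 apart are labelled. ARG7 and ADE3 are low in both tags, while ILV6 and HIS7 are low in the second only and ADE12 is high in the second only.

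The sizes of several strains depended on the tag. ARG7 read -3.76 in the first tag and -1.42 in the second, and ADE3 -2.89 and -1.88, so both were low in each. ADE13 (-1.02 and -0.96) and HOM6 (0.69 and 0.93) had tags of nearly equal size. With the second tag only, ADE13, ADE3 and HIS2 lost the call (limma adjusted p 0.073, 0.0501 and 0.083). ARG1 lost it with the first tag only (limma adjusted p = 0.205). ILV6 read -0.16 and -2.21, and HIS7 -0.28 and -2.13, so their means came from the second tag. With the first tag only, the ILV6 call was lost (limma adjusted p = 0.254). URA2 read -1.85 and -0.76, and ILV3 -2.61 and -0.59. With the first and the second tag alone, the call was lost for URA2 (limma adjusted p 0.069 and 0.243) and ILV3 (0.059 and 0.063). HOM6 lost it likewise (limma adjusted p 0.059 and 0.073). The plasmid difference of URA2 was -0.37 and -1.17 in the first and second tag, and that of LEU3 -0.31 and -1.39. ADE12 read 0.04 and 1.85, yet its plasmid difference was above 0 in both tags (0.93 and 2.66). The plasmid difference of HOM6 was 1.15 and 1.41 in the first and second tag, while that of HOM2 was -2.08 and -0.05 and that of URA1 0.06 and -1.52.

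Of the strains listed, 3 lay within 200 kb of CDC102 on chromosome X, where a deletion and the natMX disruption recombine less often than elsewhere. URA2 lay 136.5 kb away, MET3 151.5 kb and ILV3 159.8 kb. URA2 and ILV3 were low (-1.31 and -1.60) and MET3 was near the median strain (-0.25). The 89 strains between 100 and 200 kb from CDC102 had a median of 0.09. Nearer to it, the 44 strains within 50 kb had a median of -0.01. The 42 strains between 50 and 100 kb had one of -0.06. The part of linkage in these values was not tested.

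A further 64 genes of the same and neighbouring pathways were listed, of which 54 were measured. Their deletions gave 9 strains (16.7%) lower than the median strain in limma's test and 0 higher, with a median of -0.07, close to the 15.7% of all strains. The proline genes PRO2 and PRO3, which make proline from glutamate, had means of -2.14 ± 0.25 and -1.23 ± 0.22. MET18, an iron-sulfur assembly factor despite its name, had -1.97 ± 0.24, and MET4, the activator of the sulfur genes, -0.87 ± 0.13. CDC8, the essential thymidylate kinase, had -1.36 ± 0.13, and the phosphoribosyl pyrophosphate synthetase genes PRS1 and PRS3, which feed histidine, purine and pyrimidine synthesis, -1.02 ± 0.10 and -0.92 ± 0.15. ARG2, the acetylglutamate synthase, had -0.79 ± 0.11 and lies 1.45 kb from CDC102. AAH1, the adenine deaminase, had -0.55 ± 0.10.

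Among these genes the largest plasmid differences belonged to GLN1, the glutamine synthetase (1.24 ± 0.41), and PRO1, the first enzyme of proline synthesis (-1.17 ± 0.20, and -1.17 at each temperature). CDC8 differed by -0.86 ± 0.25, ORT1, the mitochondrial ornithine carrier, by -0.83 ± 0.28, MET4 by -0.82 ± 0.25 and GLY1, the threonine aldolase, by -0.74 ± 0.29. None passed the adjusted test.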

How the data were processed

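Per the labels, PCR on genomic DNA amplified the strain tags (the molecule field names RNA), which were hybridised to a tag array and read with a GenePix scanner and its software, with Cy5 for plates without Nat and Cy3 for Nat plates on all 4 arrays and no dye swap. The authors' deposited values are log2 ratios for 22575 spots, rounded as ratios to 0.01; no source used here gives the background correction or normalization, and their medians were not 0. The 10 cells holding a stand-in ratio of 1000000 were left out. Platform annotation named 1 gene for 18794 spots, several for 0 and none for 3781. Of 5325 strains, 5321 matched the gene table of assembly R64, which gave distances. Tags were taken as blocks 10971 spot numbers apart.

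Spots were averaged by strain, and each array was centred on the median of the 5288 strains measured on 4 arrays (medians removed -0.19, -0.27, -0.17 and -0.20). The test was limma 3.58.1 in R 4.3.3 with additive plasmid and temperature terms, 1 residual and 2.30 prior degrees of freedom, and Benjamini-Hochberg adjustment over all strains. An effect of the plasmid that differs between temperatures enters its error. Nothing in the labels names separate cultures or sporulations, so p-values measure the spread between these arrays. At 1 temperature there is no test. The number of arrays limits the precision. The script was tested on simulated data. Members, lists and tests were chosen with earlier results of these data known. Strains described in full passed a test, were lowest or highest or differed most in their pathway, belong to a paralog pair or lie within 200 kb of CDC102; others, such as HIS7, URA1 and HOM2, were added after their values were seen. Among the other pathway genes, those past a test and the 6 with the largest plasmid difference are named; HIS3 was added. No sequence of tags or proteins was used here.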

Additional observations from a re-analysis of the deposited data

Results flagged for a closer look

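In 3 of the 53 strains (5.66%) the plasmid difference (cdc102-1 minus CDC102) was at least 0.5 in size and opposite in sign at the 2 temperatures, as in 4.84% of all strains. HIS7 differed by -0.61 at 28 degree and 1.28 at 30 degree. URA5 differed by -1.55 at 28 degree and 0.81 at 30 degree. ILV3 differed by 0.70 at 28 degree and -0.89 at 30 degree. With 1 array for each combination of plasmid and temperature, the difference between temperatures was not tested.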

How the results depend on the processing

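No paired analysis was possible because each group holds 1 array, so the groups share fewer than 2 replicate numbers. Strains past the mean-ratio test numbered 1067, 1266 with no centring, 537 with the second tag only, and 377 to 854 with 1 array left out. Mean-ratio fits with 1 array left out also held no plasmid or temperature term. Of the ARG, HIS, LEU and URA strains 8 were lower, 13 with no centring, 5 with the first tag only, 1 among the 3 left whose tags differ by under 1, and 3 to 8 with 1 array left out. Of the other strains listed 5 were lower, 8 with no centring, 2 with the second tag only, and 3 to 4 with 1 array left out. For plasmid 0 strains passed, and 1 of 3163 whose tags differ by under 1, none of those described here. Differences of at least 1 numbered 358 at 28 degree and 830 at 30 degree, 96 and 194 where tags differ by under 1, 1345 and 1890 at a size of 0.5, and 102 and 414 at a size of 1.5.

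Pathway medians of the mean ratio took these values. With no centring, which shifts all strains down, they were -1.42 (HIS), -0.080 (LYS, a change of sign), -0.12 (MET), -0.29 (SER), 0.093 (THR with HOM) and -0.15 (ADE). With the first tag only they were -0.48 (ARG), -0.54 (LEU), -1.40 (ILV), -1.29 (HIS) and -0.30 (ADE), and with the second only -1.40 (ARG), -0.73 (ILV), -0.83 (URA) and -0.13 (ADE). Where tags differ by under 1 they were -0.38 (LEU), -0.16 (URA), -0.015 (LYS), -0.22 (SER) and -0.088 (ADE). With the median over spots HIS was -1.09. With 1 array left out HIS ran from -1.25 to -1.09 and ADE from -0.097 to 0.096.

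Mean ratios changed sign for HIS1 (0.055), MET3 (0.14) and ADE8 (0.070) with the second tag only, URA1 (0.30) with the first only, LYS12 (-0.080), LYS14 (-0.075) and MET14 (-0.027) with no centring, and LYS12 (-0.015) where tags differ by under 1. Plasmid differences changed sign for URA1 (0.078, first tag only) and MET16 (-0.046, second tag only), and LYS9 ran from -0.071 to 0.90 with 1 array left out. Temperature differences changed sign for URA5 (-0.59, first tag only), and with 1 array left out LYS9 ran from -0.91 to 0.027 and HOM6 from -0.11 to 1.5. Apart from these, 47 tests of a strain's mean ratio lost the call and 29 gained one, as for ADE12 with the first tag only (adjusted p 0.894), ARG1 with quantile normalization (0.057) and HOM6 with no centring (0.062); ARG7 and HIS6 kept it wherever they had a value. Unless stated above, the cause was not tested. Signal over background is unknown.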
